A study of Mus musculus with 6 samples.

Results

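The genes described here are the 9 that write, copy and remove cytosine methylation in the mouse: the DNA methyltransferases Dnmt3a, Dnmt3b, Dnmt3l and Dnmt1, the maintenance factor Uhrf1, the demethylating dioxygenases Tet1, Tet2 and Tet3, and the glycosylase Tdg. They were taken by symbol from a table of 56884 genes counted in ectopic endometrial lesions of mice, and all 9 were among the 18177 genes that passed the filter on low counts. RNA of 6 whole lesions was sequenced, 1 library per lesion. In the WT group (n = 3), the uterine fragments came from Dnmt3a f/f donors, which carry a floxed but intact Dnmt3a. In the KO group (n = 3), the donors were Dnmt3a f/f:PR-Cre/+, in which Cre recombinase is made only in cells that express the progesterone receptor. All donors were 8 weeks old. The recipients of both groups were wild-type C57BL/6J females given estradiol pellets, with 1 donor fragment per recipient according to the methods. The recipients carried an intact Dnmt3a in both groups, and how many recipient cells a lesion held was not measured. The labels give 4 weeks of growth after intraperitoneal injection of the fragments, whereas the methods of the study describe a shorter time and fragments sutured to the mesentery. The comparison asks how far Dnmt3a RNA was lost in these lesions and whether the other writers or the erasers were higher or lower alongside it.

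DNA methylation in mammals is laid down de novo by DNMT3A and DNMT3B, with the inactive relative DNMT3L as their helper in germ cells. After replication, UHRF1 recognises the half-methylated DNA and brings DNMT1, which copies the mark to the new strand. TET enzymes oxidise methylcytosine, and TDG cuts out the most oxidised forms so that base excision repair can restore an unmethylated cytosine. In the uterus, the progesterone receptor that drives Cre in these mice is made in both the epithelium and the stroma.

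The libraries held 45370342 to 57239184 counts, so even the least abundant of the 9 genes was read at least 30 times in every lesion. The lesions differed in the tissue they contained. Markers of skeletal muscle summed to 33099 and 36840 CPM (counts scaled to a common library size) in WT 1 and WT 3 and to between 5.56 and 16.2 CPM in the other 4 lesions. Markers of neutrophils summed to 10060 CPM in WT 2 and to between 37.4 and 489 CPM elsewhere, and pancreatic acinar markers to 4018 CPM in WT 3 and at most 0.358 CPM elsewhere. Endometrial markers were present in every lesion, among them the progesterone receptor gene Pgr at 135 to 255 CPM, whereas Foxa2, which marks uterine glands, lay between 0 and 2.62 CPM. In bulk tissue, fewer cells of a type and less RNA per cell cannot be told apart.

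The RNA of Dnmt3a (chr12:3806007-3914443, + strand, GRCm38), the targeted de novo methyltransferase, was lower in every KO lesion but far from absent. WT 1, 2 and 3 held 52.7, 43.9 and 51.7 CPM, and KO 1, 2 and 3 held 30.3, 33.5 and 36.2 CPM. The groups did not overlap, and the highest KO lesion lay below the lowest WT lesion. The means were 49.4 ± 4.82 CPM and 33.3 ± 2.92 CPM (SD, n = 3 each), so the KO lesions held 67.4% of the WT level. On the log2 scale the difference was -0.57 ± 0.14 (SE), with a 95% interval of -0.90 to -0.24. Its unadjusted p-value in edgeR's quasi-likelihood test was 0.00584 and its adjusted p-value 0.321, so it did not pass an adjusted threshold of 0.05. The exact two-sided permutation test gave 0.1, the smallest p-value that 3 lesions against 3 can give.

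Among all 18177 genes tested, 14.7% had an unadjusted p-value under 0.05, and 8.16% had one and were lower in KO. Dnmt3a was the only one of the 9 genes with such a p-value (1 of 9). Groups did not overlap in 19.4% of all genes, with the KO lesions lower in 8.74%, and again in Dnmt3a alone of the 9. By the adjusted p-value of edgeR, 0.0055% of the genes passed, a single gene, and none of the 9 did.

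The counts cover all exons of Dnmt3a, so RNA from a recombined allele that still holds the other exons is counted as Dnmt3a, and its long and short isoforms cannot be told apart. By immunohistochemistry, the study reported DNMT3A protein as absent from epithelial and stromal cells of KO lesions and present in WT lesions. Protein staining in these cells and RNA of a whole lesion are unlike measures. The antisense gene Dnmt3aos, which shares 133 bases of exon with it, was counted at no more than 0.167 CPM in any lesion, and the processed pseudogene Dnmt3a-ps1 held no count. Markers of several tissues and cell types also differed between the groups, in both directions. WT 1 and WT 3, with the most Dnmt3a, were also the lesions with skeletal muscle markers. WT 2, at 43.9 CPM of Dnmt3a, lacked them but held the most neutrophil, macrophage, T cell and B cell marker RNA of the 6 lesions. All 8 T cell markers had a log2 fold change below 0 (median -1.85), 6 with an unadjusted p-value under 0.05 and 7 with every WT lesion above every KO lesion. Their summed level was 36.3, 100.3 and 39.6 CPM in the WT lesions and 12.3, 7.75 and 28.3 CPM in the KO lesions, with no marker at 0. Of the 5 B cell markers, all 5 lay below 0 (median -3.47), 4 of them without overlap, and they summed to between 9.21 and 77.3 CPM in WT and between 7.27 and 9.81 CPM in KO. In the other direction, 5 of 8 endometrial stroma markers lay above 0 and 3 below (median 0.51), with KO above WT without overlap for 3. Of 5 smooth muscle markers, 4 lay above 0 and 1 below (median 0.73), with KO above WT without overlap for 2. Over all genes tested, 8.16% were lower in KO with an unadjusted edgeR p-value under 0.05. Groups did not overlap in 8.74% with KO lower and in 10.7% with KO higher. The part of these cells and tissues in the level of Dnmt3a was not tested.

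**Figure D1:**
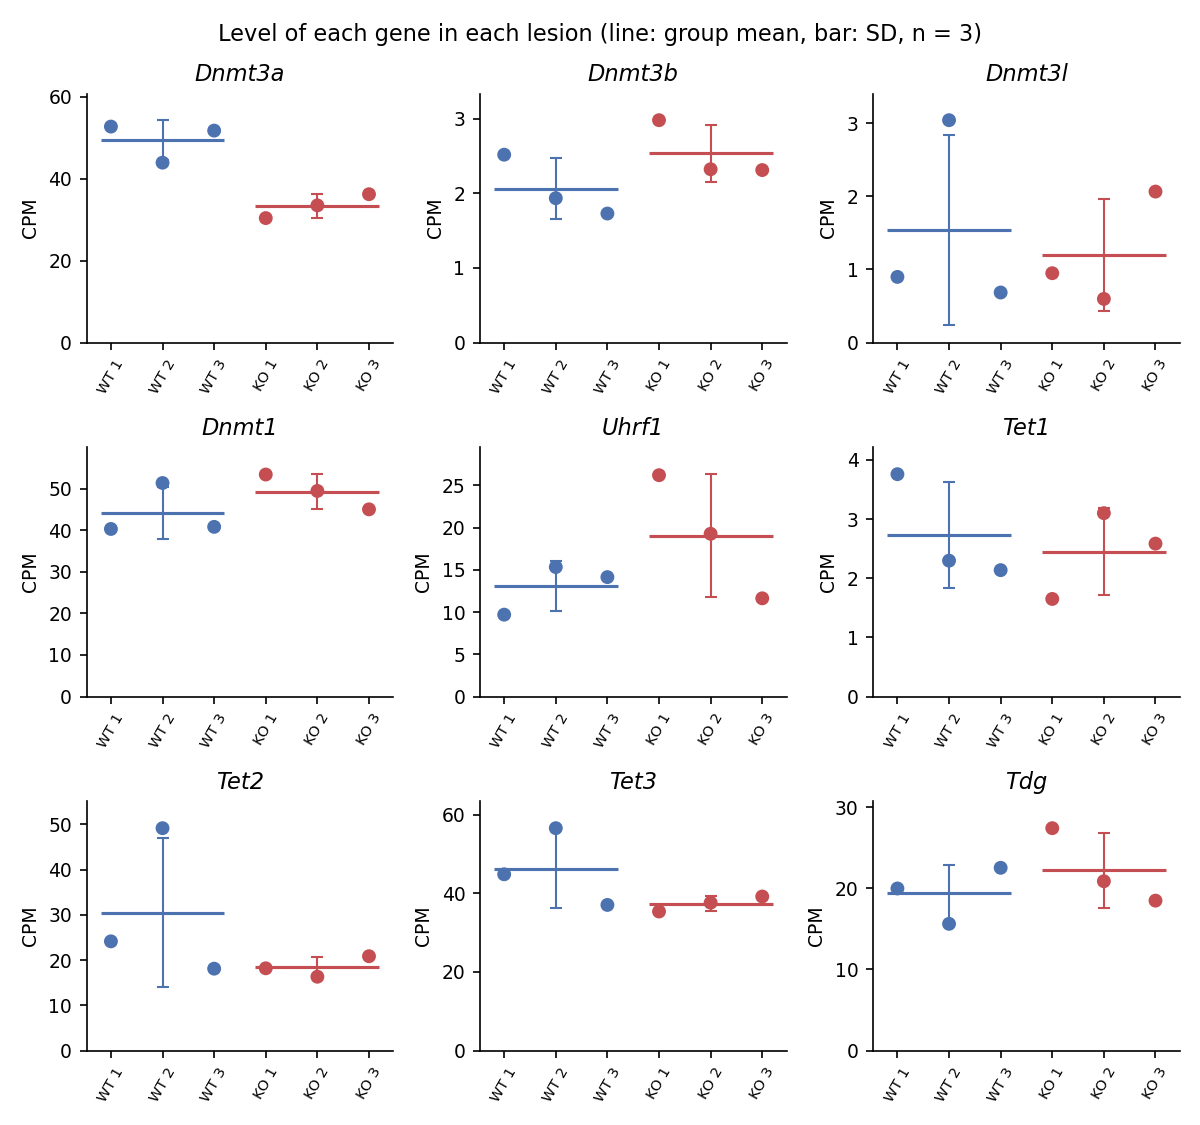
Level of each of the 9 genes in CPM (y axis, linear from 0, its own scale in each panel) in each of the 6 lesions (x axis), with WT lesions in blue and KO lesions in red. Horizontal lines are group means and bars the SD of 3 lesions. Only for Dnmt3a do all 3 KO lesions, at 30.3 to 36.2 CPM, lie below all 3 WT lesions, and Tet2 stands out in WT 2 at 49.1 CPM.

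Dnmt3b (chr2:153649450-153687730, + strand), the other catalytic de novo enzyme, was a minor transcript in these lesions. The WT lesions gave 2.52, 1.94 and 1.73 CPM, and the KO lesions gave 2.98, 2.32 and 2.31 CPM. The values overlapped, because WT 1 lay above KO 2 and KO 3. It differed by 0.30 ± 0.27 (SE) on the log2 scale, with an adjusted p-value of 0.601 in edgeR. The 95% interval ran from 0.775-fold to 1.96-fold of the WT level, so a moderate increase and a small decrease both remained within it. On the log2 scale the difference was 0.16 without WT 3, 0.17 without KO 1 and 0.47 without WT 1. Even at its highest, in KO 1, Dnmt3b stood at 2.98 CPM against 30.3 CPM of Dnmt3a in the same lesion.

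Dnmt3l (chr10:78041947-78063622, + strand), the catalytically inactive cofactor, was the least counted of the 9 genes. WT lesions held 0.897, 3.04 and 0.683 CPM and KO lesions 0.947, 0.596 and 2.06 CPM. One lesion of each group, WT 2 and KO 3, held more than the other 4, and these were also the lesions with the most adipocyte marker RNA, summed at 2257 and 3224 CPM against 387 to 867.7 CPM elsewhere. Its log2 fold change of -0.36 ± 0.74 (SE) turned to 0.60 without WT 2, so no direction can be given. The part of adipose tissue in these values was not tested. The related gene Dnmt3c, which is restricted to the male germline, was counted 4 times over the WT lesions and not at all over the KO lesions, which allows at most 0.0193 CPM there by counting error alone.

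Dnmt1 (chr9:20907209-20959888, - strand), the maintenance methyltransferase, was the most abundant of the 9 genes per kilobase of exon in every lesion. The 3 WT lesions stood at 40.3, 51.4 and 40.8 CPM and the 3 KO lesions at 53.4, 49.5 and 45.1 CPM. WT 2 lay within the range of the KO lesions, and the other WT lesions lay below it. KO differed from WT by 0.16 ± 0.15 (SE) on the log2 scale, with an adjusted p-value of 0.608 in edgeR and a 95% interval from 0.869-fold to 1.43-fold. A doubling of Dnmt1 thus lay outside this interval. On leaving out 1 lesion the difference ranged from 0.08 without WT 3 to 0.28 without WT 2, and it was 0.10 without WT 1 or KO 1.

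Uhrf1 (chr17:56303321-56323486, + strand), which guides DNMT1 to newly replicated DNA, varied widely between KO lesions. It was counted at 9.69, 15.3 and 14.1 CPM in the WT lesions and at 26.2, 19.3 and 11.6 CPM in the KO lesions. KO 1 and KO 2 lay above all WT lesions, whereas KO 3 lay below WT 2 and WT 3. The KO mean was 146% of the WT mean (19.0 ± 7.29 against 13.1 ± 2.97 CPM), the log2 fold change 0.54 ± 0.34 (SE) and the adjusted p-value 0.450 in edgeR. The 95% interval reached from 0.821-fold to 2.59-fold. Without KO 1 the log2 fold change was 0.24, and without KO 3 it was 0.80 with an adjusted p-value of 0.183.

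Genes that copy DNA or act in mitosis were compared with Uhrf1 lesion by lesion. Of 15 genes of S phase, such as those of the MCM helicase, all 15 had a log2 fold change above 0 (median 0.32), and of 10 genes of mitosis all 10 did (median 0.59), beside 51.4% of all genes tested, whose median was 0.01. None of the 15 and only 1 of the 10 had an unadjusted p-value under 0.05. On the log2(CPM + 1) scale, relative to the mean of the 6 lesions, the median S phase gene lay at -0.48, 0.06 and -0.12 in WT 1, 2 and 3 and at 0.40, 0.11 and -0.20 in KO 1, 2 and 3. On the same scale Uhrf1 lay at -0.60, 0.01 and -0.10 in WT and at 0.74, 0.32 and -0.36 in KO. Both were thus lowest in WT 1, next to lowest in KO 3 and highest in KO 1. The median mitosis gene lay at -0.67, -0.02 and -0.12 in WT 1, 2 and 3 and at 0.89, -0.05 and -0.14 in KO 1, 2 and 3, so only KO 1 stood above the rest, and KO 2 lay below WT 2. Without KO 1, 11 of the 15 S phase genes and 7 of the 10 mitosis genes remained above 0, with medians of 0.16 and 0.12.

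The lesions also differed in their epithelium. The median of 9 endometrial epithelial markers, again on the log2(CPM + 1) scale, was -0.26, -0.56 and 0.16 in WT and 0.55, 0.47 and -0.39 in KO. KO 1 and KO 2 were therefore the lesions with the most Uhrf1 and the most epithelial marker RNA. The part of dividing cells or of epithelium in the level of Uhrf1 was not tested.

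**Figure D2:**
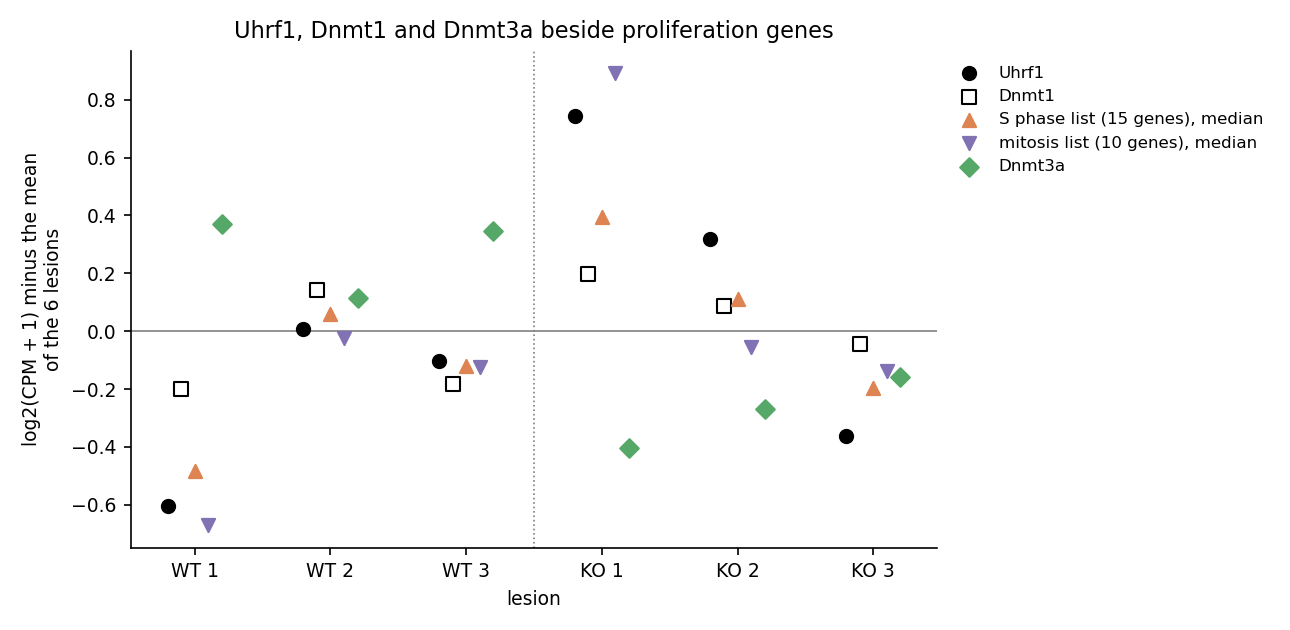
Level of Uhrf1, Dnmt1 and Dnmt3a, and the median of 15 S phase and of 10 mitosis genes, in each lesion (x axis), as log2(CPM + 1) minus the mean of the 6 lesions (y axis). Each symbol is 1 gene or list median in 1 lesion. Uhrf1 lies highest in KO 1 at 0.74 and lowest in WT 1 at -0.60, as do the S phase median, at 0.40 and -0.48, and the mitosis median, at 0.89 and -0.67, while in KO 2 Uhrf1 lies at 0.32 and the mitosis median at -0.05. The 3 KO values of Dnmt3a are its lowest.

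The promoters of the 9 genes were searched for words bound by E2F factors, the regulators that switch on genes of DNA replication. The words were TTTCCCGC, TTTCGCGC, TTTGCCGC and TTTGGCGC on either strand, which do not overlap in the matches given here, in RefSeq windows of 300 bases (250 before the start site, GRCm38.p6). At least 1 word stood in 2.26% of all 32851 windows, and in a window of 2.6% of 27025 genes. Of the 9 genes, all with a window, Dnmt1 and Uhrf1 had a match and the other 7 had none of these letters there. These windows are shown because the maintenance genes alone carried the words, with the words in capitals.
Dnmt1, chr9:20952574-20952873, - strand: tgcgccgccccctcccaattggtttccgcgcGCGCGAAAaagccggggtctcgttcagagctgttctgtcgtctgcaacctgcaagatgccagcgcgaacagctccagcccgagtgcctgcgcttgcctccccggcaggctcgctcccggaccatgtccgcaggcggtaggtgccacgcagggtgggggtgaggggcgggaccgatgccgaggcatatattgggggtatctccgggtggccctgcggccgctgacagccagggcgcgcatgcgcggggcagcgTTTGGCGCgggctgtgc
Uhrf1, chr17:56304063-56304362, + strand: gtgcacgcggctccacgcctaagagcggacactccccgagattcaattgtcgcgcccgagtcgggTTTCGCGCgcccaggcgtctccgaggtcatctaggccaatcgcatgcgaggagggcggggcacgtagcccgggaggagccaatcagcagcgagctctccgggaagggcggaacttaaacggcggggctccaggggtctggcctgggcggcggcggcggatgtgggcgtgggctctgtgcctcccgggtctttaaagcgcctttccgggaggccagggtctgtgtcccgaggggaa

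The word of Uhrf1 began at base -185 from the start site of this window, and its other window held none. In Dnmt1 the words began at bases -219 and 34 from the start site, in 1 of 3 windows. The partners of maintenance methylation had a match in 4 of 8 genes (Lig1, Hells, Cdca7 and Pclaf). S phase genes had one in 6 of the 11 with a window (Mcm3, Mcm5, Mcm6, Mcm7, Cdc6 and Pola1), and Mcm4, Gins2, Ccne2 and Gmnn had no window. Mitosis genes had one in 1 of the 9 with a window (Cdk1). The lists of de novo recruitment, TET partners, base excision repair, methyl-CpG readers and methyl donor supply had none. Every word holds a CG, and the share over all genes was not matched for CG content. These matches describe the letters only, not binding.

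The 8 partners of DNMT1 and UHRF1 at the replication fork and on chromatin did not pass the test, although all 8 had a log2 fold change above 0, with a median of 0.37. Over all genes tested, 51.4% lay above 0. Usp7 was at 0.0057, and 7 of the 8 lay above 0 with DESeq2's size factors, with the DESeq2 test and without WT 1 or WT 2. None of the 8 had an unadjusted edgeR p-value under 0.05. Hells, a chromatin remodeller needed for methylation of repeats, stood at 4.70, 10.9 and 10.5 CPM in the WT lesions and at 18.2, 12.3 and 7.69 CPM in the KO lesions. For Cdca7, which recruits HELLS, the WT lesions gave 21.1, 12.8 and 30.7 CPM and the KO lesions 49.0, 41.4 and 20.4 CPM. For both genes KO 1 and KO 2 were the highest lesions and KO 3 lay among the WT lesions, as it did for Uhrf1. Without KO 1 the median of the 8 genes was 0.16, and 7 of the 8 were above 0. Without KO 2, 6 of the 8 were above 0.

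Among the erasers, Tet2 (chr3:133463679-133545139, - strand), a dioxygenase abundant in blood cells, had the largest difference between the group means. It was read at 24.1, 49.1 and 18.1 CPM in the WT lesions and at 18.2, 16.3 and 20.8 CPM in the KO lesions. WT 2 stood far above the others, WT 1 lay just above the KO lesions and WT 3 within their range. The log2 fold change was -0.72 ± 0.38 (SE), with an adjusted p-value of 0.398 in edgeR and a 95% interval of -1.66 to 0.22. Without WT 2 it was -0.19, and without WT 3 it was -1.01. WT 2 was the lesion with neutrophil markers at 10060 CPM, and its macrophage markers summed to 3882 CPM against 600 to 1901 CPM elsewhere, but the part of these cells in the level of Tet2 was not tested.

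Tet3 (chr6:83362373-83459084, - strand), the TET enzyme with the highest level per kilobase of exon, differed less. WT lesions held 44.9, 56.6 and 37.1 CPM and KO lesions 35.4, 37.6 and 39.2 CPM, with WT 3 inside the KO range. Its log2 fold change was -0.30 ± 0.18 (SE), with an adjusted p-value of 0.436 in edgeR and a 95% interval from 0.597-fold to 1.10-fold. It was -0.13 without WT 2 and -0.46 without WT 3.

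Tet1 (chr10:62804570-62908996, - strand), best known from embryonic stem cells and germ cells, was low throughout. The WT lesions held 3.76, 2.30 and 2.14 CPM and the KO lesions 1.65, 3.10 and 2.58 CPM, and the groups overlapped. The log2 fold change of -0.16 ± 0.37 (SE) had an adjusted p-value of 0.849 in edgeR and turned to 0.14 without WT 1 and to 0.06 without KO 1.

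Tdg (chr10:82629828-82650799, + strand), the glycosylase that removes oxidised methylcytosine, was counted at 20.0, 15.6 and 22.5 CPM in the WT lesions and at 27.4, 20.9 and 18.5 CPM in the KO lesions. Only KO 1 lay above all WT lesions. Its difference on the log2 scale was 0.20 ± 0.22 (SE), with an adjusted p-value of 0.665 in edgeR and a 95% interval from 0.793-fold to 1.66-fold. Without KO 1 it was 0.024 and without WT 2 it was 0.068, but it was 0.32 without KO 3 and 0.30 without WT 3. Tdg shares 367 bases of exon with Glt8d2 on the opposite strand, which was counted at 1.19 to 3.69 CPM. Its pseudogene Tdg-ps reached at most 0.214 CPM.

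**Figure D3:**
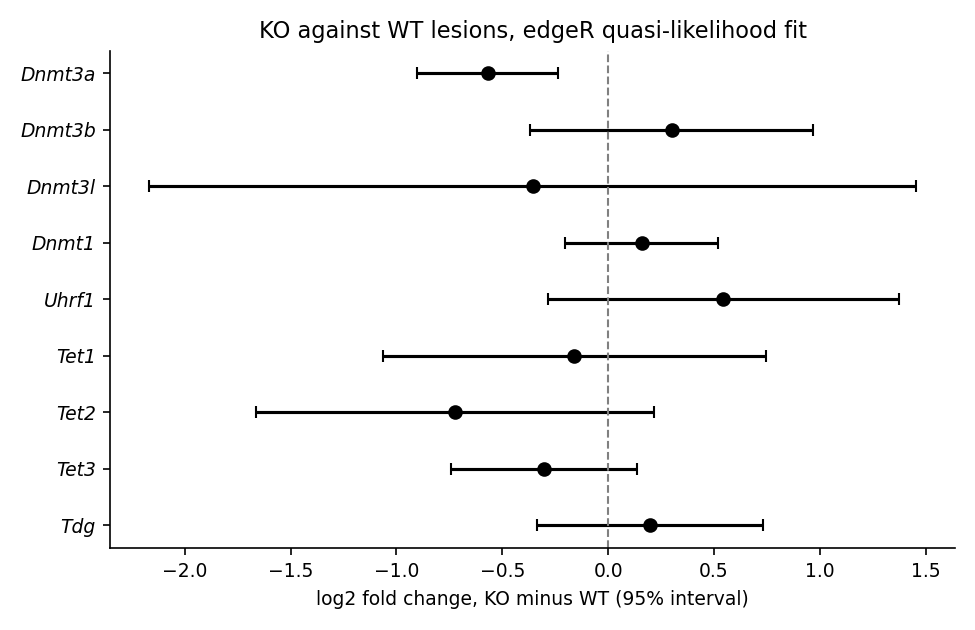
Log2 fold change of KO minus WT (x axis) for each of the 9 genes (y axis), from edgeR's quasi-likelihood fit on all genes. Points are estimates and bars 95% intervals over 3 lesions per group. The interval of Dnmt3a, -0.90 to -0.24, is the only one that does not include 0, and that of Dnmt3l, -2.17 to 1.46, is the widest.

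Because long genes collect more reads, levels of different genes were compared per kilobase of exon. In WT, Dnmt1 led with a mean of 5.99 ± 0.847 CPM per kilobase of exon (SD, n = 3), followed by Tdg at 3.61 ± 0.650, Uhrf1 at 3.06 ± 0.698, Dnmt3a at 2.97 ± 0.290, Tet3 at 2.77 ± 0.589 and Tet2 at 1.81 ± 0.976. The values of Tdg, Uhrf1, Dnmt3a and Tet3 overlapped between lesions, so their order is not set. Dnmt3l at 0.515, Dnmt3b at 0.404 and Tet1 at 0.177 CPM per kilobase of exon stood well below. In KO, every value of Dnmt3a lay below every value of Tdg and Uhrf1, with means of 2.00 ± 0.175, 4.14 ± 0.861 and 4.47 ± 1.71 CPM per kilobase of exon. Its values overlapped those of Tet3, whose mean was 2.24 ± 0.115. Per kilobase of the longest transcript, which leaves out exons of other transcripts, the mean of Dnmt3a stood behind Dnmt1 and Tdg in WT at 5.10 CPM, and behind Dnmt1, Tdg and Uhrf1 in KO at 3.44 CPM, beside Tet3 at 3.43 CPM.

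The makeup of the methyltransferases differed with the genotype. Of the summed level of Dnmt1, Dnmt3a and Dnmt3b per kilobase of exon, Dnmt3a made up 34.7%, 26.4% and 34.6% in the WT lesions and 18.9%, 21.9% and 24.9% in the KO lesions. Dnmt1 made up 59.9%, 69.8% and 61.6% in WT and 75.1%, 73.1% and 69.9% in KO, whereas Dnmt3b made up 3.77% to 5.41% and 4.96% to 6.05%. The groups did not overlap for the shares of Dnmt3a and Dnmt1, although WT 2 at 69.8% and KO 3 at 69.9% were nearly equal for Dnmt1. These shares are no independent support for a change in Dnmt1, since a lower level of Dnmt3a alone raises the share of the rest.

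The summed level of the 3 enzymes was 9.36 ± 0.541 CPM per kilobase of exon in WT and 9.19 ± 0.459 in KO. Between the group means, Dnmt3a went from 2.97 to 2.00, Dnmt1 from 5.99 to 6.69 and Dnmt3b from 0.404 to 0.497 CPM per kilobase of exon, and for the last 2 genes the lesions of the groups overlapped. Per kilobase of the longest transcript, Dnmt3a went from 5.10 to 3.44, Dnmt1 from 7.53 to 8.40 and Dnmt3b from 0.477 to 0.588 CPM. How close the sums of the groups lie therefore depends on the length used. The reads of Dnmt3a per read of Dnmt1, a ratio within each lesion, were 1.31, 0.854 and 1.27 in WT and 0.568, 0.676 and 0.803 in KO. Every KO lesion again lay below every WT lesion, by little between WT 2 and KO 3. Among the TET genes, Tet3 made up 52.5% to 64.7% of the summed level in WT and 62.6% to 65.9% in KO. Tet2 made up 45.2% in WT 2 and 28.3% to 32.9% in the other 5 lesions.

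**Figure D4:**
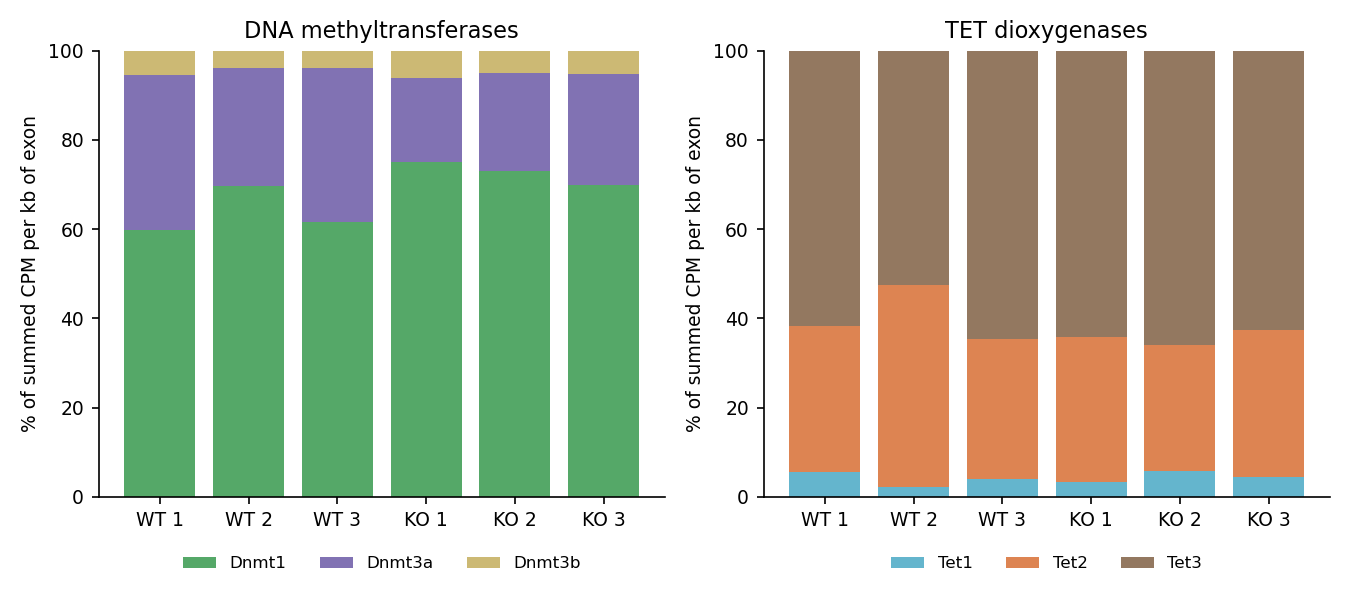
Share of each gene in the summed level per kilobase of exon of the methyltransferases Dnmt1, Dnmt3a and Dnmt3b (left) and of the TET genes (right), in percent (y axis), for each lesion (x axis). Dnmt3a takes 26.4% to 34.7% of the first sum in WT and 18.9% to 24.9% in KO, and WT 2 stands apart on the right with 45.2% Tet2.

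The wider pathway, maintenance partners included, was read from the same fit. Of 61 genes in 6 lists of partners, cofactor supply, repair, readers and methyl donor supply, 57 could be tested, and the rest (Dnmt3c, Mat1a, Bhmt and Gnmt) were too low. Of the 57, 35 had a log2 fold change above 0 and 22 below, with a median of 0.08. With an unadjusted p-value under 0.05, 2 were higher and 3 lower in KO, against 6.55% and 8.16% of all genes tested, and none passed the adjusted threshold in edgeR. Groups did not overlap for 8 of the 57, 3 lower in KO (8.74% of all genes tested) and 5 higher (10.7%). These counts depend on the fit, with 15 of the 57 under an unadjusted p-value of 0.05 in limma voom and 11 without KO 3, where 30.1% and 23.9% of all genes were.

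The 5 genes were spread over 3 lists. Zbtb38, a zinc finger protein that binds methylated DNA, was at 69.0, 94.5 and 84.9 CPM in the WT lesions and 42.6, 42.7 and 62.3 CPM in the KO lesions. All WT lesions lay above all KO lesions, and the difference on the log2 scale was -0.75 ± 0.21 (SE) with an adjusted p-value of 0.321 in edgeR. Polb, the polymerase that fills the gap left in base excision repair, gave 39.2, 25.4 and 30.7 CPM in the WT lesions and 20.3, 20.2 and 19.9 CPM in the KO lesions. The KO values were close together and all below WT, with a log2 fold change of -0.66 ± 0.18 (SE) and the same adjusted p-value as Zbtb38.

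Trim28, a corepressor that keeps imprinted regions and transposons methylated, gave 120.2, 108 and 123 CPM in the WT lesions and 170.5, 157 and 133 CPM in the KO lesions. Every KO lesion lay above every WT lesion, by 0.39 ± 0.14 (SE) on the log2 scale, with an adjusted p-value of 0.328 in edgeR. Its unadjusted p-value was under 0.05 in 8 of 14 alternatives and rose to between 0.0593 and 0.0948 without any 1 lesion other than KO 3. Lig3, a ligase of base excision repair, gave 68.5, 35.9 and 61.1 CPM in the WT lesions and 173, 168 and 57.6 CPM in the KO lesions. Only KO 1 and KO 2 stood above WT, and KO 3 lay within it, so the log2 fold change of 1.27 ± 0.47 (SE) (adjusted p-value 0.332 in edgeR) rests on those lesions, and its unadjusted p-value was under 0.05 in 8 of 14 alternatives. Lig3 shares 1826 bases of exon with Rffl on the opposite strand, which was at 22.4 to 48.4 CPM and highest in WT 2, where Lig3 was lowest.

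Gadd45b, a stress gene linked to active demethylation, gave 25.4, 249 and 13.1 CPM in the WT lesions and 7.35, 5.01 and 17.0 CPM in the KO lesions. Its level in WT 2, the lesion with neutrophil markers, set the log2 fold change of -3.29 ± 1.24 (SE, adjusted p-value 0.332 in edgeR), which was -0.97 with an unadjusted edgeR p-value of 0.161 without that lesion. Of the 9 readers of methylated CpG, 8 had a log2 fold change below 0, but the median was only -0.11, Zbtb38 was the only one with an unadjusted p-value under 0.05, and with upper quartile scaling, which moved the median of all genes to 0.11, 5 of the 9 lay below 0.

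**Figure D5:**
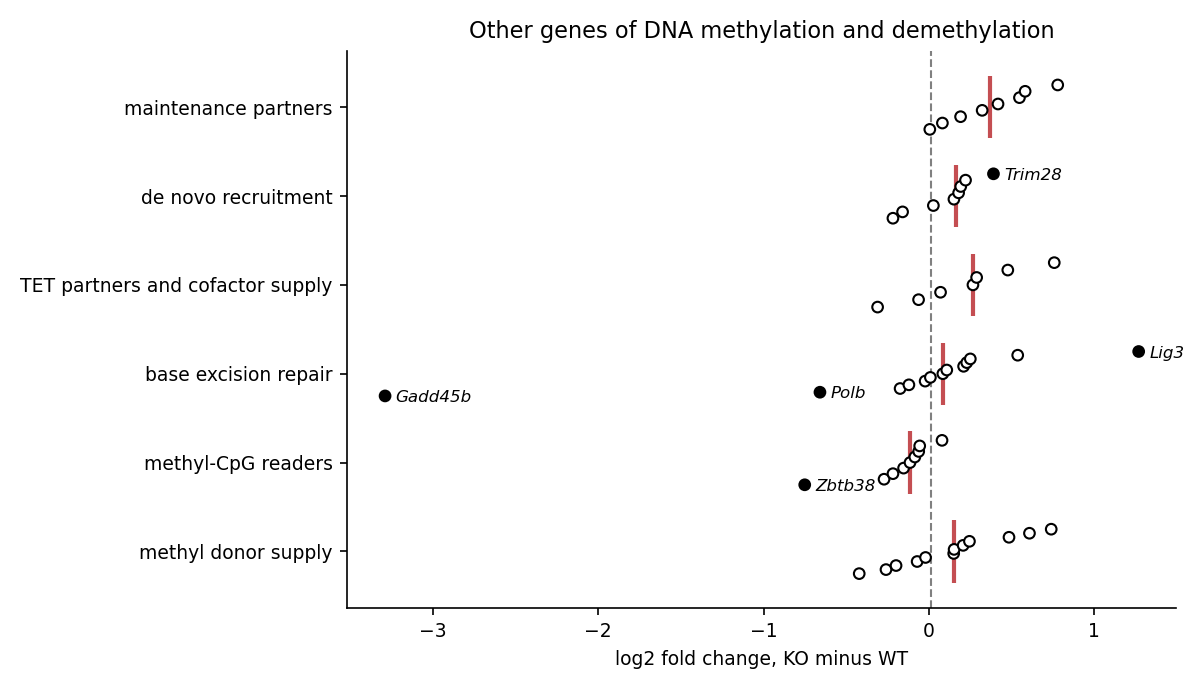
Log2 fold change of KO minus WT (x axis) for the 57 tested genes of 6 lists (y axis), with the list median as a red bar and the median of all genes tested, 0.01, as a dashed line. Filled and labelled points are the 5 genes with an unadjusted p-value under 0.05, from Gadd45b at -3.29 to Lig3 at 1.27, and the median of the maintenance partners lies at 0.37.

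The genes whose pattern over the 6 lesions was most like that of a member were ranked by the root mean square difference of their log2(CPM + 1) profiles, each centred on its mean, among 15045 genes. Nearest to Dnmt3a were Gm5452 (0.0574), Hccs (0.0597), which attaches heme to cytochrome c, and Mbnl2 (0.0671), a splicing regulator. Hccs, for example, stood at 18.6, 14.9 and 19.1 CPM in the WT lesions and at 10.98, 12.9 and 12.9 CPM in the KO lesions. Nearest to Uhrf1 was Prim1 (0.0675), the small subunit of DNA primase and itself one of the S phase genes above, at 3.12, 5.22 and 4.53 CPM in the WT lesions and 10.2, 6.20 and 3.88 CPM in the KO lesions. Perp (0.0840), a gene of cell junctions, and Adamts9 (0.0956), a secreted protease, followed. Nearest to Dnmt1 were Fam50a (0.0242), Rfx5 (0.0244), a regulator of MHC class II genes, and Myl12b (0.0323), a myosin light chain. Their log2 fold changes of 0.15, 0.14 and 0.16 lie near that of Dnmt1 because the ranking picks genes with its profile.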

How the data were processed

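RNA of 6 lesions was prepared as stranded mRNA libraries. The authors deposited whole-number read counts for each gene and lesion, without normalization. Reads were trimmed, mapped to GRCm38 and counted on the Galaxy platform according to the methods, whereas the submitters' processing notes name Trimmomatic, featureCounts, DESeq2 and the build GRCm39. The aligner, the annotation release and the strand setting of the counting are not given in the sources used here.

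Of 56884 gene identifiers, 51948 were matched without their version to symbols of GENCODE M21 (35 with the same version), and gene coordinates and exon lengths are from that release on GRCm38 and can differ from the gene models counted. Tests used edgeR 4.0.16 (R 4.3.3): filterByExpr, TMM, a quasi-likelihood fit with the genotype as its only term, and Benjamini-Hochberg adjustment over 18177 genes. The standard error was taken as the absolute log2 fold change over the root of the F statistic. CPM were computed with TMM factors and no prior count. Alternatives were DESeq2 1.42.0, limma 3.58.1 voom, other scalings and filters, a replicate term and each lesion left out. The fits were run on simulated counts with changes far larger than those of the 9 genes, so that check does not cover differences of their size. Named pathway genes are those with an unadjusted p-value under 0.05, or with groups that do not overlap and a log2 fold change of at least 0.5 in size. The 9 genes, all lists and the promoter words were chosen with earlier results of these data known. Promoter sequences are from RefSeq.

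The labels do not say that the lesions came from separate donors, although the methods count 3 donors per group, so p-values measure the spread between these lesions. Reads carry no molecular identifiers, and limits from counts cover counting error only.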

Additional observations from a re-analysis of the deposited data

How the results depend on the processing

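Over 14 alternatives, the log2 fold change of Dnmt3a stayed between -0.68 and -0.47, with an unadjusted p-value under 0.05 in all 14, and its adjusted p-value ranged from 0.0447 to 0.668. It passed the adjusted threshold with DESeq2 only. Of 196 values of single genes under an alternative, 190 kept their direction and side of the adjusted threshold, and Gadd45b passed it with DESeq2 (0.0293). Dnmt3l turned to 0.0085 with limma voom and 0.60 without WT 2 (range on leaving out 1 lesion -0.99 to 0.60), and Tet1 turned to 0.14 and 0.06 (range -0.36 to 0.14). The share of all genes with an unadjusted p-value under 0.05 also moved with the setting, from 14.7% to 17.2% with upper quartile scaling, 30.1% with limma voom, 7.7% with the replicate block and 6.85% to 23.9% on leaving out a lesion (11.4% without WT 3, 7.26% without KO 1 and 23.9% without KO 3). The number of the 9 genes with such a p-value was 1, against 3 with limma voom (Dnmt1 and Uhrf1 in addition) and 1 to 3 on leaving out a lesion (3 without WT 3, with Tet2 and Tet3, and 2 without KO 3, with Uhrf1), and the number past the adjusted threshold was 0, against 1 with DESeq2. For the 57 pathway genes, the first number was 5, against 10 with upper quartile scaling, 15 with limma voom, 2 with the replicate number as a block and 2 to 11 on leaving out a lesion (11 without KO 3, 2 without KO 1 and 3 without each of the others), and the second was 0, against 1 with DESeq2. The cause was not tested. Over all genes, 1 passed the adjusted threshold in edgeR, against 1077 with DESeq2, 12 with limma voom, 398 without WT 2, 1 with each other filter and with robust priors, and 0 in the other 8 alternatives (DESeq2's size factors, upper quartile scaling, the replicate block and each other lesion left out). Deviations from the group mean correlated at 0.03, -0.15 and -0.20 between lesions with the same replicate number. No WT lesion correlated best with the KO lesion of its own number. With 3 lesions per group, whose deviations sum to 0, these values cannot decide whether the lesions were paired. Dnmt3l and Dnmt3b rested on 30 to 170 counts per lesion.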
